A study of Mus musculus with 12 samples.

Results

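A set of 10 genes that mark the lymphoid bias of early haemopoietic progenitors were followed in BCR::ABL1+ and BCR::ABL1- murine stem and progenitor cells: the receptors Flt3, Il7r and Notch1, the antigen receptor recombination genes Dntt, Rag1 and Rag2, and the nuclear factors Ikzf1, Tcf3, Ebf1 and Satb1. The 10 members were chosen by symbol and mapped to Ensembl identifiers, out of 56748 genes counted in each library, and all 10 passed the filter on low counts.

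Multipotent progenitors begin to transcribe lymphoid genes at a low level before they commit to a lineage, a state called lymphoid priming. FLT3 marks the progenitors in which this begins, IL-7 receptor and Notch signals carry B and T lineage development further, and the E proteins and Ikaros factors open the lymphoid programme, while the RAG proteins and terminal transferase later rearrange and diversify antigen receptor genes. The Lin-Sca+Kit+ fraction of mouse bone marrow (BM) holds stem cells and multipotent progenitors. Within it, transcripts such as Flt3, Dntt and Rag1 are mostly found in the lymphoid-primed subset.

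The cells came from a transplantable, inducible model of chronic myeloid leukaemia (CML). Irradiated B6.SJL recipients (CD45.1, 8 to 12 weeks old) received BM of SCLtTA/BCR-ABL double transgenic (DTG) mice (CD45.2), in which a tetracycline (TET)-repressed transactivator under SCL gene elements drives human BCR::ABL1 in stem and progenitor cells. All mice drank TET for 2 weeks after transplant. In the group labelled CML 2wk TET was then withdrawn for 2 weeks (BCR::ABL1+, n = 6 libraries), and in the group labelled CTRL it was continued (BCR::ABL1-, n = 6 libraries), so the control cells carried the same transgenes and had undergone the same transplant. CD45.2+Lin-Sca+Kit+ cells were sorted from recipient BM for bulk RNA-seq. Donor BM was a pool of several DTG mice of both sexes, so the libraries are replicates of recipients and not of donors.

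Library totals were 22804754 to 41832868 counts in BCR::ABL1- and 16150817 to 25070105 in BCR::ABL1+, a difference in depth with p = 0.0108 (exact permutation test, two-sided, n = 6 and 6). The biological coefficient of variation (the spread between libraries beyond counting noise) came to 10.8% among BCR::ABL1- libraries and 32.4% among BCR::ABL1+ libraries. BCR::ABL1+ replicate 2 stood apart, with the highest mast cell and stromal gene sums of its group and no counts of Pax5. Its sum of erythroid and megakaryocyte genes was also the highest, mostly through 1 gene, Itga2b. The labels give male for BCR::ABL1- and female for BCR::ABL1+, and labelled sex cannot be told apart from group. However, Xist was at 3794 to 4425 CPM (counts scaled to the size of each library) in the libraries labelled male. It was at 2183 to 3502 CPM in those labelled female, where the male transcript Ddx3y reached 8.64 CPM, against 0.588 CPM in those labelled male. Library numbers ran separately in the groups except for replicate 6 of each, so for the other replicates the run and the group cannot be told apart either.

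Lymphoid priming genes were lower in BCR::ABL1+ cells. Of the 10 members 8 fell, 0 rose, and Il7r and Ebf1 did not pass the test (edgeR quasi-likelihood, Benjamini-Hochberg adjusted p under 0.05 over 18438 genes). Across all genes tested 29.0% were lower and 30.6% higher by that rule. The median log2 fold change (BCR::ABL1+ over BCR::ABL1-) was −0.97 over the members and 0.07 over all genes. In 6 members every BCR::ABL1+ library lay below every BCR::ABL1- library, as it did for 20.6% of all genes. In bulk samples, fewer cells of a type and less RNA per cell cannot be told apart.

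**Figure D1:**
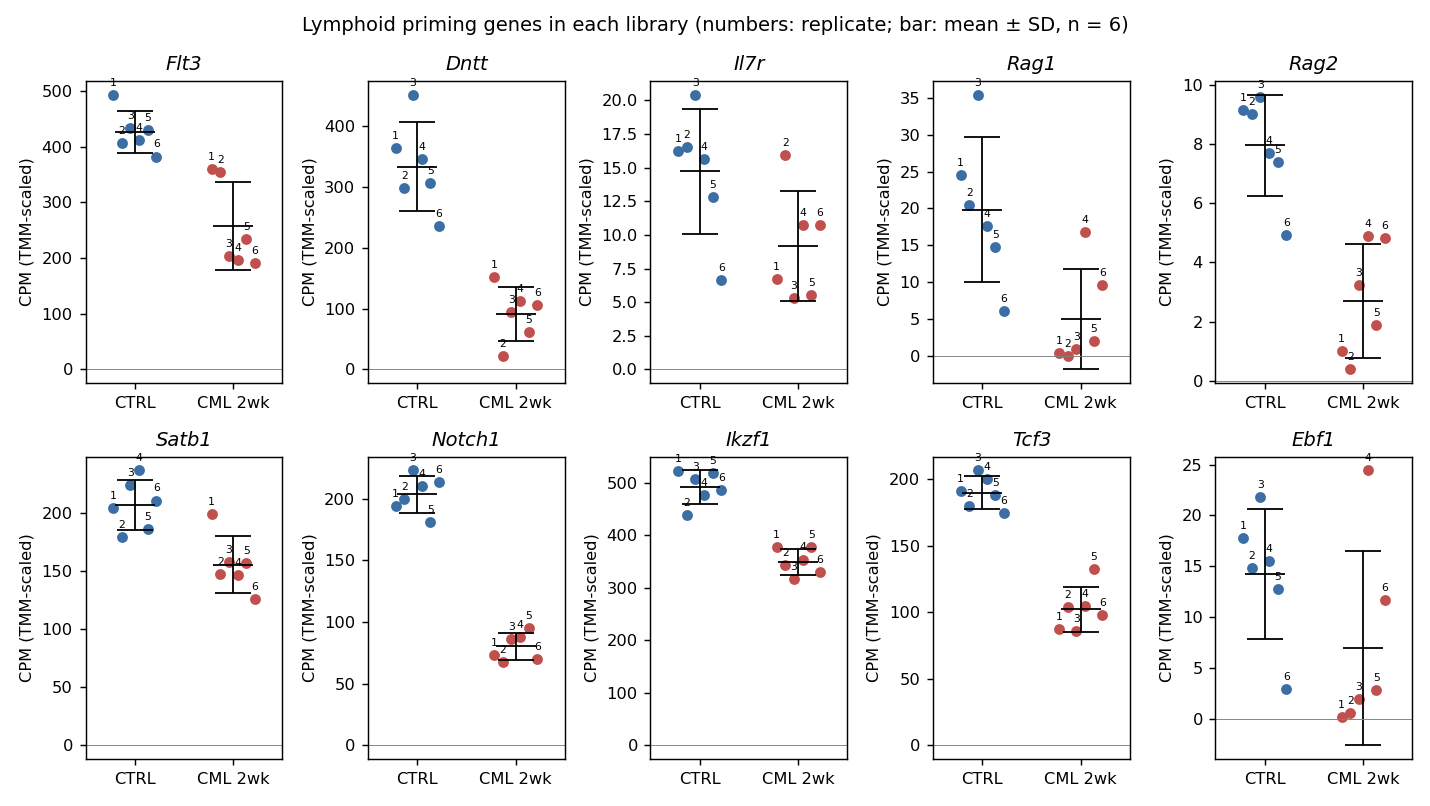
Normalised read counts (CPM, 1 panel per gene) of the 10 lymphoid priming genes in the 6 BCR::ABL1- (CTRL) and 6 BCR::ABL1+ (CML 2wk) libraries, with the group mean and SD. Notch1, Tcf3 and Ikzf1 separate cleanly, while Rag1 and Ebf1 spread widely among the BCR::ABL1+ libraries, where replicate 4 is the highest.

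Among the receptors, Notch1 changed most evenly. NOTCH1 directs progenitors to the T lineage. Its level ranged from 181 to 223 CPM in BCR::ABL1- (median 205) and from 67.9 to 95.2 CPM in BCR::ABL1+ (median 79.7). The groups were far apart, with little spread within either, and the gene fell by 1.35 on the log2 scale (SE 0.0885, edgeR adjusted p = 3.98e-08; two-sided exact permutation test, n = 6 and 6, p = 0.00216, the smallest that 6 against 6 libraries allow). On the GENCODE annotation, 7.5% of the exon bases of Notch1 overlap the opposite-strand transcript 0610009E02Rik, which was at 1.56 and 1.88 CPM in BCR::ABL1- and BCR::ABL1+.

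Flt3 encodes the receptor tyrosine kinase for FLT3 ligand. It ranged from 382 to 493 CPM in BCR::ABL1- (median 421) and from 192 to 359 CPM in BCR::ABL1+ (median 219). The BCR::ABL1+ libraries lay in 2 levels, with replicates 1 and 2 at 359 and 355 CPM and the other 4 at 192 to 234 CPM. All 6 were below the lowest BCR::ABL1- library, and Flt3 fell by 0.73 (log2, SE 0.158, edgeR adjusted p = 0.00111).

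Il7r encodes the alpha chain of the IL-7 receptor. It was expressed at a far lower level, 6.64 to 20.4 CPM in BCR::ABL1- (median 15.9) and 5.33 to 15.9 CPM in BCR::ABL1+ (median 8.74). The groups overlapped, because replicate 6 of BCR::ABL1- was low and replicate 2 of BCR::ABL1+ was high. The log2 difference was −0.68 (SE 0.288, edgeR adjusted p = 0.0544), which missed the threshold. Without BCR::ABL1+ replicate 2 it was −0.92 (adjusted p = 0.00609) and without BCR::ABL1- replicate 6 it was −0.84 (adjusted p = 0.0134). With any other single library left out it missed the threshold, with an adjusted p up to 0.121. With all libraries kept it passed with DESeq2 (−0.68, adjusted p = 0.0243), so the call depended on the libraries and on the method.

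The recombination genes fell by more than 1.5 on the log2 scale in the edgeR fit. Dntt encodes terminal deoxynucleotidyl transferase, which adds untemplated nucleotides at V(D)J junctions, and RAG1 and RAG2 form the recombinase that cuts at the recombination signals. The promoters of these 3 genes are shown because their transcripts fell and Rag1 and Rag2 varied together across libraries. Sequences are from RefSeq, on GRCm38.p6, while the submitters' processing notes name GRCm39 for the counts. The sequences cover 250 bases before to 50 after the annotated start, in the direction of transcription. Capitals mark matches to the motifs searched. Rag1 lies at chr2:101649483-101649782 (minus strand), Rag2 at chr2:101624462-101624761 (plus strand) and Dntt at chr19:41029025-41029324 (plus strand).
Rag1: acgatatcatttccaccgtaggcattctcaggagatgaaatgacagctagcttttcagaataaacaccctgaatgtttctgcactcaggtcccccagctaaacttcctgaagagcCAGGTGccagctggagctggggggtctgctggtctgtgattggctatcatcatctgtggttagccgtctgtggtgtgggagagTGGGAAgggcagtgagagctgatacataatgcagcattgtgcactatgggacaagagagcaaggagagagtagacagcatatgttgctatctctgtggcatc
Rag2: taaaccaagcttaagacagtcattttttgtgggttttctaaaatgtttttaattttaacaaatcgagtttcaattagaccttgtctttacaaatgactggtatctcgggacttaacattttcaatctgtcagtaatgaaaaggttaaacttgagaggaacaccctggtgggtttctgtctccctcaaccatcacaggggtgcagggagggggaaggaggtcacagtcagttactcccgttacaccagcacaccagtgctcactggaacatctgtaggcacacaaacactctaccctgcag
Dntt: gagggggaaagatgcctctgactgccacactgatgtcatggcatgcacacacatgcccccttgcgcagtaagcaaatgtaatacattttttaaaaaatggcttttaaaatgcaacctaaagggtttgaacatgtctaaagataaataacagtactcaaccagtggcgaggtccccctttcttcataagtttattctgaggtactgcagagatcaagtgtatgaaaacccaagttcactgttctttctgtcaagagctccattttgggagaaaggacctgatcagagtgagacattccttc

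The motifs searched on both strands were the E-box CAGGTG bound by E proteins such as TCF3, the core TGGGAA shared by Ikaros and RBPJ sites, and an EBF site, TCCC and GGGA separated by any 2 bases. They occurred in 20.2%, 25.6% and 0.904% of 32851 mouse promoters of the same length. The Rag1 window held CAGGTG at −135 and TGGGAA at −52 from the start, and the Rag2 and Dntt windows held none of the 3. All 10 members had at least 1 RefSeq promoter (16 in all), and among the others matches were found only in promoters of Satb1 and Ebf1. A match describes letters in these windows only.

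Dntt was the more abundant of the 3, at 235 to 451 CPM in BCR::ABL1- (median 326) and 21.6 to 152 CPM in BCR::ABL1+ (median 99.8). Every BCR::ABL1+ library was below every BCR::ABL1- library, and replicate 2 was the lowest. Dntt fell by 1.87 (log2, SE 0.327, edgeR adjusted p = 0.000184).

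Rag2 ranged from 4.94 to 9.57 CPM in BCR::ABL1- (median 8.35) and from 0.385 to 4.88 CPM in BCR::ABL1+ (median 2.56). The groups did not overlap, although BCR::ABL1- replicate 6 (4.94 CPM) and BCR::ABL1+ replicate 4 (4.88 CPM) nearly met. Rag2 fell by 1.56 (log2, SE 0.438, edgeR adjusted p = 0.0067).

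Rag1 spread more widely, from 6.11 to 35.5 CPM in BCR::ABL1- (median 19) and from 0 to 16.8 CPM in BCR::ABL1+ (median 1.47). Replicate 2 of BCR::ABL1+ had 0 counts, which allows up to 0.128 CPM (3 counts, counting error only), whereas replicates 4 and 6 at 16.8 and 9.57 CPM lay within the BCR::ABL1- range. Rag1 fell by 2.01 (log2, SE 0.824, edgeR adjusted p = 0.0474; two-sided exact permutation test, n = 6 and 6, p = 0.0173). This call was close to the threshold and was lost when any of BCR::ABL1- replicates 1 to 5 or of BCR::ABL1+ replicates 1, 3 and 5 was left out, with adjusted p up to 0.103 and a log2 change between −2.09 and −1.77 in those fits. Of the exon bases of Rag2, 6.1% overlap the opposite-strand gene B230118H07Rik, and 1.2% of those of Rag1 overlap it on the same strand. Its means were 23.7 and 28.6 CPM in BCR::ABL1- and BCR::ABL1+, above those of Rag1 and Rag2. The part of the shared bases in their counts was not tested.

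The nuclear factors gave smaller and more even differences, apart from Ebf1. Tcf3 encodes the E proteins E12 and E47, which activate B lineage genes. It ranged from 174 to 207 CPM in BCR::ABL1- (median 190) and from 85.9 to 133 CPM in BCR::ABL1+ (median 101). No library overlapped, and Tcf3 fell by 0.90 (log2, SE 0.0944, edgeR adjusted p = 1.76e-06).

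Ikzf1 encodes Ikaros, a zinc finger factor required for lymphoid development. Its level lay at 438 to 523 CPM in BCR::ABL1- (median 497) and at 316 to 378 CPM in BCR::ABL1+ (median 349). The groups did not overlap, and it fell by 0.49 (log2, SE 0.0655, edgeR adjusted p = 1.53e-05), one of the smaller changes of the set.

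Satb1 encodes a chromatin organiser of lymphoid loci. It ranged from 179 to 237 CPM in BCR::ABL1- (median 207) and from 126 to 199 CPM in BCR::ABL1+ (median 152). BCR::ABL1+ replicate 1 lay among the control libraries and the other 5 below them. Satb1 fell by 0.41 (log2, SE 0.10, edgeR adjusted p = 0.00259).

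Ebf1 encodes the factor that specifies B cells. It ranged from 2.94 to 21.8 CPM in BCR::ABL1- (median 15.2) and from 0.227 to 24.4 CPM in BCR::ABL1+ (median 2.44). The highest library of all 12 was BCR::ABL1+ replicate 4, while replicates 1, 2, 3 and 5 of that group were at or below 2.85 CPM. The log2 difference was −1.04 (SE 0.769, edgeR adjusted p = 0.259). Without BCR::ABL1+ replicate 4 it was −2.03 (adjusted p = 0.0281). With any other single library left out it missed the threshold, with an adjusted p up to 0.39.

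Levels were compared between members per kb of exon (CPM per kb, exon lengths from GENCODE M21). In BCR::ABL1- the order was Dntt (mean 146, range 103 to 197), Ikzf1 (85.1, 75.8 to 90.5), Flt3 (69.0, 61.9 to 79.8) and Tcf3 (47.0, 43.1 to 51.1), followed by Notch1 at 14.3 and Satb1 at 10.9. Il7r, Rag1, Rag2 and Ebf1 came last, between 3.16 and 1.46, and their library ranges overlapped. In BCR::ABL1+ Ikzf1 was first (60.5, 54.7 to 65.4), and Flt3 (41.6) and Dntt (39.8) had overlapping ranges. Dntt thus moved from a level above that of Ikzf1 in every BCR::ABL1- library to a mean below it.

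**Figure D2:**
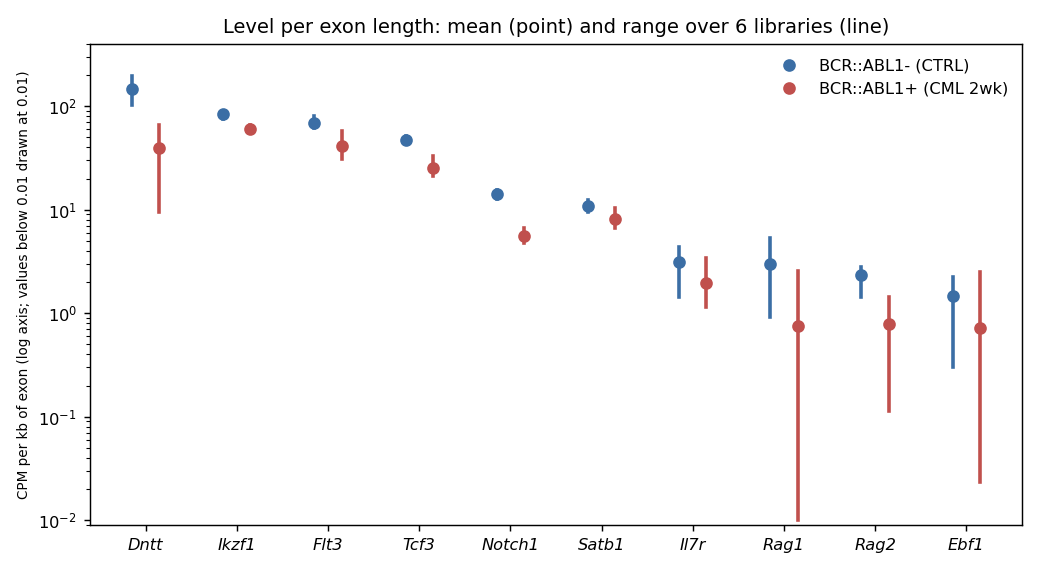
Levels of the 10 members in CPM per kb of exon (log axis) in BCR::ABL1- and BCR::ABL1+, with the mean as a point and the range over 6 libraries as a line; the 0 of Rag1 in BCR::ABL1+ replicate 2 is drawn at the foot of the axis. Dntt leads in BCR::ABL1- with a mean of 146 and Ikzf1 leads in BCR::ABL1+ with a mean of 60.5, and the 4 lowest genes overlap in both groups.

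Members did not all move together from library to library. In BCR::ABL1-, replicate 6 was the lowest of its group for 7 of 10 members and replicate 3 the highest for 7 of 10. Among BCR::ABL1+ libraries, Flt3 was highest in replicates 1 and 2, where Rag1 was at 0.28 and 0 CPM and Rag2 at 1.02 and 0.385 CPM. After centring on the group means (log2 CPM, 12 libraries), Pearson's r was 0.94 between Rag1 and Rag2 and 0.91 between Rag1 and Ebf1, but −0.75 between Flt3 and Rag1. Flt3 and Rag1 had r = 0.65 among the 6 BCR::ABL1- libraries and r = −0.87 among the 6 BCR::ABL1+ libraries. Replicates 1 to 5 of a group share a run of library numbers, the libraries differ in depth, and the values are descriptions.

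Genes with the pattern closest to a member were ranked by the same centred r (12 libraries). Those closest to Flt3 were Mtmr3 (r = 0.94), Vps26b (r = 0.93) and Smpd2 (r = 0.93). Those closest to Dntt were the unnamed gene ENSMUSG00000120754 (r = 0.94), Ighd (r = 0.94) and Cmah (r = 0.93), and those closest to Il7r were Sgk1 (r = 0.95), Nfkbia (r = 0.93) and Gfra2 (r = 0.92). Spearman's rho of these 9 pairs was 0.825 to 0.979, and r without the 2 libraries farthest from the median of the member was 0.725 to 0.939.

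Most B cell genes followed the same libraries. Of 12 listed, 5 fell and 0 rose (edgeR, adjusted p under 0.05), with a median log2 change of −1.44. Over all genes tested, 29.0% fell and 30.6% rose by that rule. Pax5 went from 17.0 to 4.07 CPM on average (log2 −2.07, SE 0.720, edgeR adjusted p = 0.0225) and Cd22 from 3.74 to 0.816 CPM (log2 −2.20, SE 0.50, edgeR adjusted p = 0.00158). BCR::ABL1- replicate 6 was the lowest of its group for 11 of the 12 B cell genes, BCR::ABL1+ replicate 2 for 10 of 12, and BCR::ABL1+ replicate 4 the highest for 8 of 12. In BCR::ABL1+ replicate 2 Pax5, Vpreb1, Vpreb3, Igll1, Ms4a1 and Cd22 had 0 counts, and in replicate 4 Pax5 was at 11.1 CPM. Summed over the list, BCR::ABL1- libraries held 440 to 795 CPM, and the BCR::ABL1+ libraries 30.9 to 372 CPM. Most of that sum in BCR::ABL1- was Ighm, the IgM heavy chain gene (log2 −1.38, edgeR adjusted p = 0.0704), and the other 11 genes summed to 38.7 to 155 CPM in BCR::ABL1- and overlapped at 27.9 to 103 CPM in BCR::ABL1+. Ighm was lowest of its group in BCR::ABL1- replicate 3 (373 CPM), the library highest for 9 of the 12 genes. Cd79b did not fall (log2 0.21, edgeR adjusted p = 0.185). B cell genes are markers of cells that the lineage gate should remove, and their part in the differences of Rag1, Rag2, Dntt and Ebf1 was not tested. The count of called B cell genes was 2 without BCR::ABL1- replicate 3 and 8 without BCR::ABL1+ replicate 4.

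**Figure D3:**
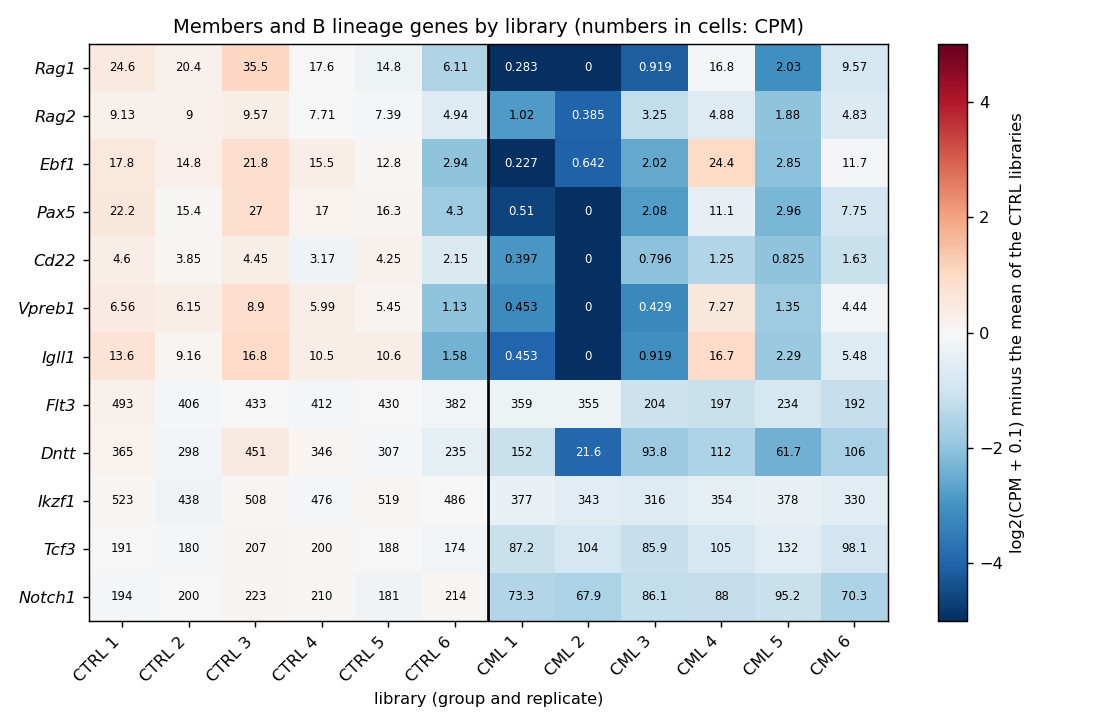
Heat map of 8 members and 4 B cell genes (rows) in the 12 libraries (columns), coloured by log2 CPM relative to the mean of the BCR::ABL1- libraries, with the CPM printed in each cell and the colour scale limited at the ends. Rag1, Rag2, Ebf1 and the 4 B cell genes shown are low in BCR::ABL1+ replicates 1, 2, 3 and 5 and nearer the control level in replicates 4 and 6, while Notch1, Tcf3 and Ikzf1 are low in all 6.

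Replicate 6 of the 2 groups shared a run of library numbers. There the log2 ratio of BCR::ABL1+ over BCR::ABL1- was −1.60 for Notch1, −1.15 for Dntt, −0.99 for Flt3, −0.83 for Tcf3, −0.75 for Satb1, −0.56 for Ikzf1 and −0.03 for Rag2, and it was 0.69 for Il7r, 0.64 for Rag1 and 1.97 for Ebf1. With 1 library in each group this comparison has no test.

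Other genes of the lymphoid programme were lower as well. Of 15 further priming genes 11 fell and 2 rose (edgeR, adjusted p under 0.05), with a median log2 change of −0.87. This count, and those of the lists that follow, stand beside 29.0% lower and 30.6% higher over all genes tested. The largest falls were those of Ly6d, a surface marker of B-biased lymphoid progenitors, from 3.10 to 0.708 CPM (log2 −2.16, SE 0.522), and Spib, a lymphoid ETS factor, from 5.71 to 1.32 CPM (log2 −2.12, SE 0.448). Gfi1, a repressor with roles in lymphoid and granulocyte cells, rose from 42.2 to 68.5 CPM (log2 0.70, SE 0.129).

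Partners of the receptors were mostly lower. In FLT3 and IL-7 receptor signalling 7 of 10 genes fell and 1 rose, with a median log2 change of −0.59. Flt3l, the FLT3 ligand gene, went from 8.89 to 4.05 CPM (log2 −1.13, SE 0.178), and Jak3, the kinase of the common gamma chain, from 198 to 105 CPM (log2 −0.92, SE 0.0950). Socs1, an inhibitor of JAK signalling, rose from 5.63 to 8.15 CPM (log2 0.53, SE 0.200, edgeR adjusted p = 0.0323), a call that was lost in 13 of 22 alternative fits. Of 13 Notch signalling genes tested (15 listed), 7 fell and 1 rose, with a median log2 change of −0.41. The coactivator gene Maml2 went from 49.9 to 19.9 CPM (log2 −1.33, SE 0.120) and the Notch regulator gene Dtx1 from 0.648 to 0.223 CPM (log2 −1.51, SE 0.486), and the receptor gene Notch3 rose from 2.06 to 4.52 CPM (log2 1.14, SE 0.211).

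V(D)J recombination partners were mixed in direction. Of 11 tested 5 fell and 2 rose, with a median of −0.23 on the log2 scale. Polm, a polymerase related to terminal transferase, went from 2.81 to 1.60 CPM (log2 −0.80, SE 0.271) and the Ku80 gene Xrcc5 from 45.3 to 31.1 CPM (log2 −0.54, SE 0.121). The DNA-bending proteins that assist RAG cleavage were higher, Hmgb2 going from 383 to 569 CPM (log2 0.57, SE 0.106) and Hmgb1 from 498 to 608 CPM (log2 0.29, SE 0.0833), a call lost with no filter on low counts (0.22, edgeR adjusted p = 0.0747).

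Of 5 E protein and ID genes tested (6 listed) 2 fell and 1 rose, with a median log2 change of −0.24. The E protein genes fell with Tcf3, Tcf12 from 173 to 130 CPM (log2 −0.41, SE 0.0640, edgeR adjusted p = 6.94e-05) and Tcf4 from 239 to 159 CPM (log2 −0.58, SE 0.0706, edgeR adjusted p = 6.23e-06). Id1, an inhibitor that binds E proteins and keeps them off DNA, rose from 1.29 to 10.1 CPM (log2 2.95, SE 0.270, edgeR adjusted p = 4.82e-07). The related Id2 was at 28.8 and 25.1 CPM (log2 −0.20, SE 0.209, edgeR adjusted p = 0.434) and Id3 at 1.05 and 0.893 CPM (log2 −0.24, SE 0.817, edgeR adjusted p = 0.820). Of 8 Ikaros family and chromatin remodelling (NuRD) genes 5 fell and 1 rose, with a median log2 change of −0.21. Chd4, the NuRD helicase, went from 922 to 472 CPM (log2 −0.97, SE 0.0821), Ikzf3, which encodes the B cell factor Aiolos, from 4.23 to 1.11 CPM (log2 −1.95, SE 0.462), and the deacetylase gene Hdac1 rose from 113 to 134 CPM (log2 0.24, SE 0.0810), a call lost in 2 of 22 alternative fits.

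**Figure D4:**
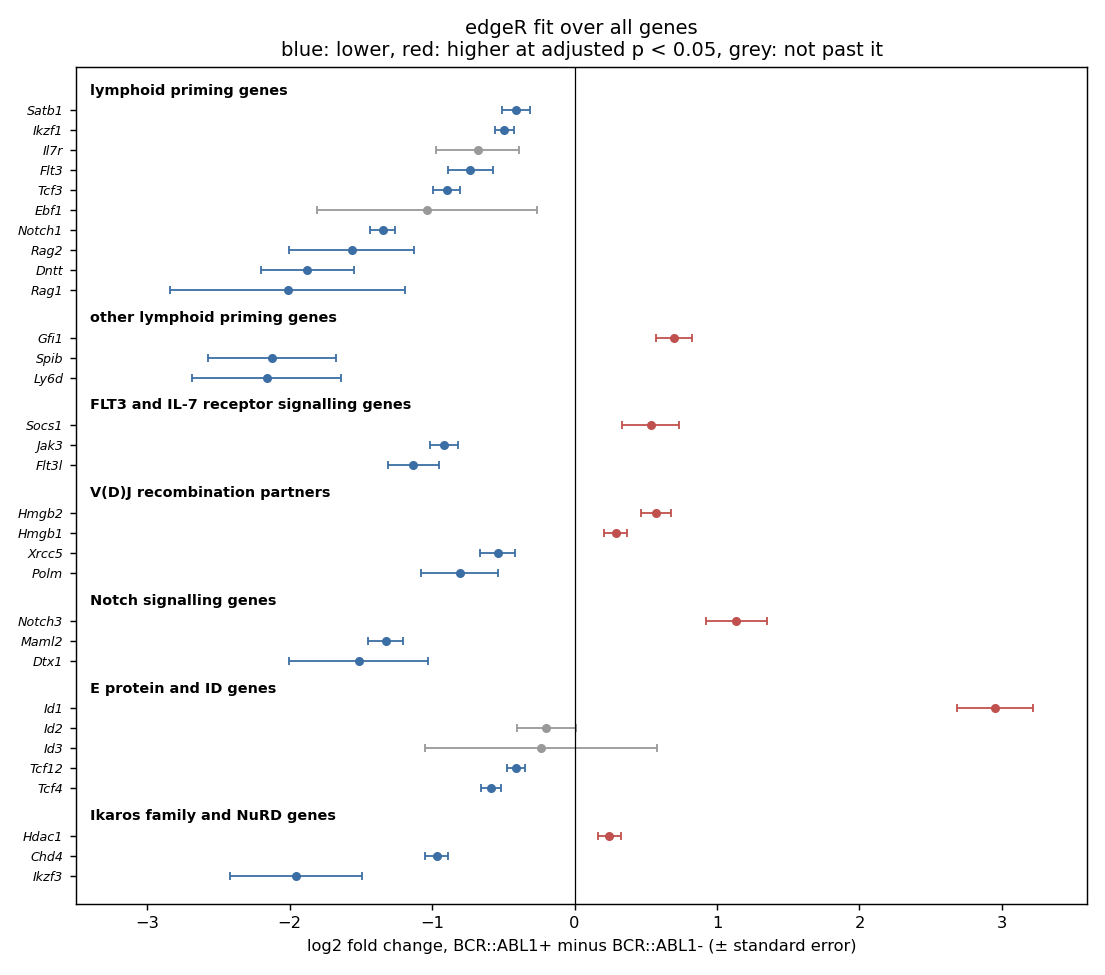
Log2 fold change (BCR::ABL1+ over BCR::ABL1-, edgeR, bars SE) of the members and of the genes named from the 6 pathway lists, in blue where lower, red where higher and grey where the adjusted p missed 0.05. All 10 members lie below 0, from −2.01 for Rag1 to −0.41 for Satb1, and Id1 at 2.95 is the furthest above 0 of the genes shown.

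The sorting markers and markers of other cells moved too. Kit fell from 749 to 412 CPM (log2 −0.86, SE 0.101, edgeR adjusted p = 4.68e-06), and Ly6a, which encodes Sca-1, was at 34.4 and 44.8 CPM (log2 0.38, SE 0.170, edgeR adjusted p = 0.0660). Long-term stem cell genes fell in 8 of 10, among them Tek, which encodes the angiopoietin receptor TIE2, by 1.64 on the log2 scale. Summed, they reached 571 to 758 CPM per BCR::ABL1- library and 213 to 318 CPM per BCR::ABL1+ library. Erythroid and megakaryocyte genes fell in all 9 tested, led by Hba-a1 (log2 −4.50) and Pf4 (log2 −2.99). Their sum lay at 362 to 411 CPM per BCR::ABL1- library and at 109 to 266 CPM per BCR::ABL1+ library.

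Myeloid genes went the other way or were mixed. Of 8 mast cell and basophil genes 6 rose, with Tpsb2 (log2 7.53) and Cma1 (log2 6.40) at the top, and their sum lay at 99.5 to 199 CPM per BCR::ABL1- library and at 425 to 2497 CPM per BCR::ABL1+ library. Monocyte and macrophage genes rose in 5 of 10, including Cd14 (from 0.455 to 2.92 CPM) and F13a1 (log2 1.87), with sums of 360 to 620 and 597 to 1284 CPM. In granulocyte genes 4 rose and 4 fell: the azurophil granule protease genes Ctsg (log2 2.90) and Prtn3 (log2 1.96) were higher, and the later granule genes Ngp (log2 −2.94) and Camp (log2 −2.87) were lower. Without BCR::ABL1- replicate 4 the change of Ngp was −1.79 (edgeR adjusted p = 0.0813), and with limma voom neither Ngp (−2.96, adjusted p = 0.0994) nor Camp (−2.30, adjusted p = 0.218) passed. The granulocyte sum spanned 2351 to 4805 CPM per BCR::ABL1- library and 3146 to 8604 CPM per BCR::ABL1+ library.

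T and NK genes fell in 5 of 10 tested and rose in 2, with a median log2 change of −0.99. The list gave sums of 99.95 to 126 CPM per BCR::ABL1- library and 98.2 to 212 CPM per BCR::ABL1+ library. Most of the sum in every library was Nkg7, whose mean was 82.7 CPM without BCR::ABL1 and 121 CPM with it. The sums therefore mainly follow this gene and do not show the falls of the others. Cd2 (log2 −2.27) and Cd8a (log2 −1.89) fell and Nkg7 (log2 0.55) and Klrb1c (log2 0.62, lost in 10 of 22 alternative fits) rose, while the T cell receptor subunit gene Cd3e was at or below 1.02 CPM in all 12 libraries. Plasmacytoid dendritic cell genes fell in 3 of 6 tested, with Siglech (log2 −3.05) and Runx2 (log2 −0.83) lower and Lair1 (log2 0.79) the 1 that rose, and the sums were 268 to 301 and 210 to 277 CPM. Stromal genes rose in 3 of 9 tested, near the share of 30.6% over all genes. Col3a1 (log2 5.58) and Col1a1 (log2 4.36) were high in BCR::ABL1+ replicates 2 and 4. Without these libraries, an omission chosen after seeing the data, they were lower, at −3.15 and −3.47 on the log2 scale. All 10 members then passed the test as lower, but the omitted libraries held the highest BCR::ABL1+ values of Il7r, Rag1, Rag2 and Ebf1. The part of the marker changes in the level of the members was not tested.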

How the data were processed

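Bulk RNA-seq of 12 libraries of sorted donor Lin-Sca+Kit+ cells from mouse BM was analysed, 6 CTRL (BCR::ABL1-) and 6 CML 2wk (BCR::ABL1+), grouped by their labels. The authors deposited raw counts per Ensembl gene. The submitters' processing notes name FastQC 0.11.9, fastp 0.23.2, STAR 2.7.10a, featureCounts 2.0.1, DESeq2 1.36.0 and GRCm39, while the methods of the study name Trim Galore!, HISAT2 and a human build, so the aligner is uncertain. The annotation release and the strand setting are not given in the sources used here, and overlapping genes are uncertain for that reason. Of 56748 identifiers, 52073 matched a symbol.

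Counts were fitted with edgeR 4.0.16 in R 4.3.3 (TMM factors, filterByExpr, quasi-likelihood test, group only, 18438 genes, Benjamini-Hochberg over all genes, threshold 0.05). The fit was tested on simulated data. Exact permutation tests (Python 3.11.15, scipy 1.17.1) compared mean log2 CPM (prior count 2) over every assignment to 6 and 6. CPM are TMM-scaled. DESeq2 1.42.0 and limma 3.58.1 were alternatives, with other scalings, filters and left-out libraries. For a library at 0 the limit is set at 3 counts, for counting error only, since PCR copies are not independent molecules. No pair of libraries was within sampling noise (lowest chi-square per degree of freedom 4.07). The labels do not say that same-numbered replicates are paired.

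The members and gene lists were chosen with earlier results of these data known. Genes named besides the members were the sort markers, Id1, Id2, Id3, Tcf12 and Tcf4, up to 2 with the largest rise and 2 with the largest fall among the called genes of each list, and the 3 genes closest in pattern to Flt3, Dntt and Il7r; a few genes that this rule picks are not reported here. Vpreb1, Vpreb3, Igll1, Ms4a1, Ighm, Cd79b and Cd3e were named after their values were seen, as were Xist, Ddx3y and overlapping genes.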

Additional observations from a re-analysis of the deposited data

Results flagged for a closer look

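In 6 of 54 sets of 6 libraries examined, 1 library stood far from the rest (Dixon's ratio above its 95% critical value), where chance gives about 2.7, and no single member was among them. BCR::ABL1+ replicate 2 had the highest summed CPM of mast cell and basophil genes (2497, next 1022), of erythroid and megakaryocyte genes (266.4, next 151.3) and of stromal genes (1059, next 508.2). Itga2b made up 228 CPM of that erythroid and megakaryocyte sum, while the erythroid gene Klf1 was the lowest of its group there (0.770 CPM). BCR::ABL1- replicate 2 had the lowest sums of FLT3 and IL-7 receptor signalling genes (1273, next 1331) and of T and NK cell genes (99.95, next 118.6). Most of that T and NK sum was Nkg7, which was at its lowest in BCR::ABL1- there (67.0 CPM). BCR::ABL1- replicate 4 had the highest granulocyte sum (4805, next 2991).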

How the results depend on the processing

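Flt3, Dntt, Rag2, Satb1, Notch1, Ikzf1 and Tcf3 stayed lower with an adjusted p under 0.05 in all 22 alternative fits, and all 10 members had a negative log2 change in each of them. The count of members called lower was 7 to 10 over 23 alternatives, and 0 were called higher. Il7r passed the test with DESeq2 (−0.68, adjusted p = 0.0243), limma voom with sample weights (−0.88, adjusted p = 0.0434), no filter on low counts (−0.76, adjusted p = 0.0376), without replicate 6 of both groups (−0.88, adjusted p = 0.0163), without BCR::ABL1+ replicate 2 and BCR::ABL1- replicate 6 (−1.05, adjusted p = 0.00053), and without BCR::ABL1+ replicates 2 and 4 (−1.06, adjusted p = 0.00338). In all, Il7r passed in 8 of 22 alternative fits and Ebf1 in 2 of 22. With each library left out in turn Il7r lay between −0.92 and −0.57, Rag1 between −2.95 and −1.75, and Ebf1 between −2.03 and −0.79. Rag1 missed the threshold with upper-quartile factors (−1.94, adjusted p = 0.0541), DESeq2 (−2.01, adjusted p = 0.0929) and robust dispersion (−2.01, adjusted p = 0.0987). Ebf1 passed it without BCR::ABL1+ replicates 2 and 4 (−1.75, adjusted p = 0.0278), an alternative chosen after seeing the data. Genes of the 6 pathway lists called higher numbered 8, and 5 with no filter. Col1a1 was reversed with limma voom (−0.27) and without BCR::ABL1+ replicates 2 and 4 (−3.47), as was Col3a1 without those libraries (−3.15). Among other named genes, Id3 passed the test with limma voom (−2.53, adjusted p = 0.0458) and Id2 without BCR::ABL1+ replicate 2 (−0.41, adjusted p = 0.0402), and Pax5 missed it without BCR::ABL1- replicate 3 (−1.89, adjusted p = 0.0506). The sort marker Ly6a passed as higher in 3 of 22 alternative fits. These were upper-quartile factors (0.45, adjusted p = 0.0254), DESeq2 (0.38, adjusted p = 0.0445) and without BCR::ABL1+ replicate 5 (0.465, adjusted p = 0.025). The causes were not tested.

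Same-numbered replicates did not deviate together (correlations −0.13 to 0.07), which gave no sign of pairing by number. Such correlations cannot show that the libraries are unpaired, since a weak shared effect could be hidden by the spread between libraries. With the replicate block, 8 members were called lower and the call of no member changed, and Rag1 was at −3.08 (adjusted p = 0.0330). Camp missed the threshold with the block (−2.08, adjusted p = 0.0601). Counts were lowest for Rag1, Rag2, Il7r and Ebf1, at 0 to 450 per BCR::ABL1+ library.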
